A study of Mus musculus with 2 samples.

Results

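The killer cell lectin-like receptor genes were followed through single-cell transcriptomes of inflamed mouse skin. They were taken as every gene whose symbol starts with Klr, together with Kir3dl1 and Ncr1, which code for receptors of the immunoglobulin type. The rule gave 28 genes of the 31053 listed, of which 26 carry a Klr symbol. Of the 28, 23 reached 20 unique molecular identifiers (UMIs, each standing for 1 captured mRNA molecule) in at least 1 of 4 cell classes: T-like cells of the epidermis, T-like cells of the dermis, natural killer (NK)-like cells of the dermis and myeloid cells of the dermis. The other 5 were below it, with 5 UMIs of Klra6, 3 of Klri1, 2 of Klrc3 and 2 of Klrb1 as the most in a class and no UMI of Klra10 in any kept cell.

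The skin came from wild type C57BL/6 mice treated with imiquimod, a Toll-like receptor agonist whose cream gives a psoriasis-like inflammation. The labels give an age of 10 weeks and 5 consecutive days of treatment on the ear for both libraries, whereas the study's methods give a younger age for its imiquimod model, and the number of mice per library was not given in the sources used here. Dermis and epidermis were separated, freed of dead cells by sorting and each made into 1 droplet library read from the 3′ end of the transcripts, with no untreated skin among the libraries analysed here. The methods add a gate on CD45, the surface marker of blood cells, for the dermis and none for the epidermis, which the labels do not mention. The dermal library still held 393 fibroblast-like and 55 endothelial-like cells, and shares of the dermal library below are shares of the sorted cells, not of the tissue. Since there was 1 library per tissue, no difference between the tissues has a replicate check, no p-value was computed, and every interval below covers counting error only.

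The dermal library held 5376 barcodes and 41258087 UMIs, of which 4747 cells passed a filter on genes (200 or more) and on mitochondrial UMIs (10% or less), at a median of 7010 UMIs. The epidermal library held 5258 barcodes and 108768396 UMIs, with 4173 cells kept at a median of 25918. The libraries shared 45 barcodes, 30 of them among the kept cells. In the kept cells, 8353 dermal UMIs fell on 26 of the receptor genes and 6782 epidermal UMIs on 25. Cells were grouped within each library with the receptor genes left out, so that the class of a cell did not rest on them.

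Most of these receptors are proteins of the C-type lectin fold anchored in the membrane of NK cells. NK cells kill infected, transformed or stressed cells, and they weigh signals from inhibitory receptors, which mostly read major histocompatibility complex (MHC) class I molecules on the target, against signals from activating receptors. The Ly49 receptors (Klra genes) bind classical class I molecules, CD94 (Klrd1) pairs with an NKG2 chain (Klrc genes) to read Qa-1, and NKG2D (Klrk1) reads stress-induced ligands. In mouse epidermis a resident γδ T cell, the dendritic epidermal T cell, is known to carry several of the same receptors.

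The genes lie close together in the genome. In the annotation of the mm10 build, 26 of the 28 were on chromosome 6, and 24 of them lay within 2.638 Mb (chr6:128609227-131247362), the NK gene complex. All 11 Ly49 genes were on the minus strand. Klra17 (chr6:129831154-129876672) stood at one end of the Ly49 row and Klra2 (chr6:131219223-131247362) at the other, with the 9 other Ly49 genes between them. Klrg1 and Klrg2 lay elsewhere on chromosome 6, Ncr1 on chromosome 7 and Kir3dl1 on chromosome X.

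Because the libraries count 3′ ends, near-identical 3′ ends can split or lose the reads of a gene. Of all 50-base words in the last 500 bases of the transcripts, the share also found in another gene was 49.4% for Klra9. It was 43.5% for Klrc1 (shared with Klrc2), 40.6% for Klra10, 31.5% for Klra3 and 25.04% for Kir3dl1 (shared with Kir3dl2). It was 22.4% for Klrb1b (mostly shared with Gm44511), 22.1% for Klra7 and 20.5% for Klrc2. Levels of these genes are therefore uncertain with respect to their copies. No word was shared for Klrd1, Klrk1, Klre1, Klrg1, Klrg2, Klra2, Klra5, Klra17 or Ncr1. Each molecule was counted once whatever the length of its transcript, so a level is given as CPM, the UMIs of a gene per 1000000 UMIs of all genes in a class, with an exact 95% Poisson interval.

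The 250 bases before the start of the gene (RefSeq, GRCm38.p6) are shown for 6 genes whose patterns are described below. Klra4 and Klra8 were Ly49 genes of the NK-like cells, Klra2 and Klra17 were Ly49 genes of myeloid cells, and Klrk1 and Ncr1 carried matches to the core motif of RUNX factors, TGTGGT, on either strand. Capitals mark matches to TGTGGT or to the TATA box letters TATAAA. The first sequence is that of Klra4 (chr6:130067272-130067521, minus strand), followed by Klra8 (chr6:130129899-130130148, minus strand), Klra17 (chr6:129876673-129876922, minus strand), Klra2 (chr6:131247363-131247612, minus strand), Klrk1 (chr6:129623865-129624114, minus strand) and Ncr1 (chr7:4337465-4337714, plus strand).
Klra4: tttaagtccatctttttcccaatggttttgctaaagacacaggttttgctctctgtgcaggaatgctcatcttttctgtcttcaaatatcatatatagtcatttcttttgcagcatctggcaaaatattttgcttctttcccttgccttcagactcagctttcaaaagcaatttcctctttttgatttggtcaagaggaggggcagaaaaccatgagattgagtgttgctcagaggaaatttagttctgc
Klra8: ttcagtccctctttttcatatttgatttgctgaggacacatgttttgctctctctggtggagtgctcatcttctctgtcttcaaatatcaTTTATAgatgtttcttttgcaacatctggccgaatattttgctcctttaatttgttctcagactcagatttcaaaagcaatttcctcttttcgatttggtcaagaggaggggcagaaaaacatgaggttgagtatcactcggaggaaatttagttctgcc
Klra17: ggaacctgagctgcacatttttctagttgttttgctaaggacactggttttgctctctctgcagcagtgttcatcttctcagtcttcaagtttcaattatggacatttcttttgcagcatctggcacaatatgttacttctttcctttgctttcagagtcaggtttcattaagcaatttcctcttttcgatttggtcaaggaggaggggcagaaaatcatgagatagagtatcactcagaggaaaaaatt
Klra2: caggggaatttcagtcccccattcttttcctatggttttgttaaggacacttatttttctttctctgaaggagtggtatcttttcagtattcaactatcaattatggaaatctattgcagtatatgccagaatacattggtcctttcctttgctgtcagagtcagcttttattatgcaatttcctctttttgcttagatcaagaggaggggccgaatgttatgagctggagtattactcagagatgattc
Klrk1: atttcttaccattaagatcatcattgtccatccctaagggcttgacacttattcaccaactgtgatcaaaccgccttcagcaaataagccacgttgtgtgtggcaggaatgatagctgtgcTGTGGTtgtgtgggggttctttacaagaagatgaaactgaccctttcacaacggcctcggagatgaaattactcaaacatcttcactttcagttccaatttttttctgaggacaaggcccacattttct
Ncr1: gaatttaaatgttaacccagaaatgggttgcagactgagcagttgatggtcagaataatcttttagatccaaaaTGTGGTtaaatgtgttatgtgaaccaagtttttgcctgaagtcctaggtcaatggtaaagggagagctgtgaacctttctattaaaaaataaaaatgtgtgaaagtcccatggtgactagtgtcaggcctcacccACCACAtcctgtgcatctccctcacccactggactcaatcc

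Of the 28 genes, 25 had such a sequence, with none for Klrd1, Klrg1 and Klri2. The Klra4 and Klra8 sequences were 84.5% identical, and Klra17 was 79.4% identical to Klra4 and 75.2% to Klra2. Klra2 was 70.3% identical to Klra4. To the other Ly49 genes of NK-like cells (Klra1, Klra3, Klra7 and Klra9), Klra17 was 44.2 to 51.8% identical and Klra2 44.1 to 51.0%. In these fixed windows, Klra4 and Klra8 were thus closer to the myeloid pair than the other 4 were. The windows were aligned over their full length, so a difference in the annotated start lowers the identity. The Klra3 and Klra9 windows hold, further in, a stretch close to the first bases of the Klra8 window. The values therefore do not measure how far the sequences have diverged. Searched on both strands, TGTGGT was found in 9 of the 25 sequences, against 14.2% of 27025 promoters of the same length, and TATAAA in 9 of 25, against 12.97%. The ETS core GGAAGT was found in 3 of 25, against 19.99%, and the AP-1 letters TGACTCA in 0 of 25, against 4.43%. The 9 sequences with TGTGGT belonged to Klra1, Klrb1a, Klrb1c, Klrc1, Klrc2, Klrc3, Klre1, Klrk1 and Ncr1, so 1 of them was a Ly49 gene. Many of the 25 genes are copies of each other, so their matches are not independent. Klrc2 and Klrc3 hold the same TGTGGT matches in nearly the same sequence. In Klra3, Klra5, Klra6 and Klra9, TATAAA lies within nearly the same bases. The shares over all promoters are therefore no measure of enrichment. A match is only a run of letters, and no binding was measured here.

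Summed over all 28 genes, the level was 6502 CPM (6179 to 6838) in the 37 dermal NK-like cells and 2815 (2716 to 2918) in the 470 epidermal T-like cells. It was 225 (206 to 246) in the 251 dermal T-like cells and 194 (189 to 199) in the 3424 dermal myeloid cells. Of these classes, NK-like cells were thus highest and epidermal T-like cells second, and both stood far above the dermal T-like and myeloid cells. Within the myeloid cells the level was uneven. The 351 dendritic-like cells reached 740 (714 to 765) and held 39.0% of all receptor UMIs of the dermis, more than the 18.1% of the NK-like cells. A cluster of 30 dendritic-like cells of the epidermis reached 1122 (995 to 1260). In keratinocyte-like cells of the epidermis, the sum was 30.3 CPM. The levels of the T-like classes depended on how the cells were chosen: with a gate on Cd3 UMIs in place of clusters the epidermal level was 941, and with the study's stricter filter on cells or with the receptor genes in the clustering the dermal level was 401 or 418. In each of these the order of the 3 lymphoid classes was the same.

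**Figure D1:**
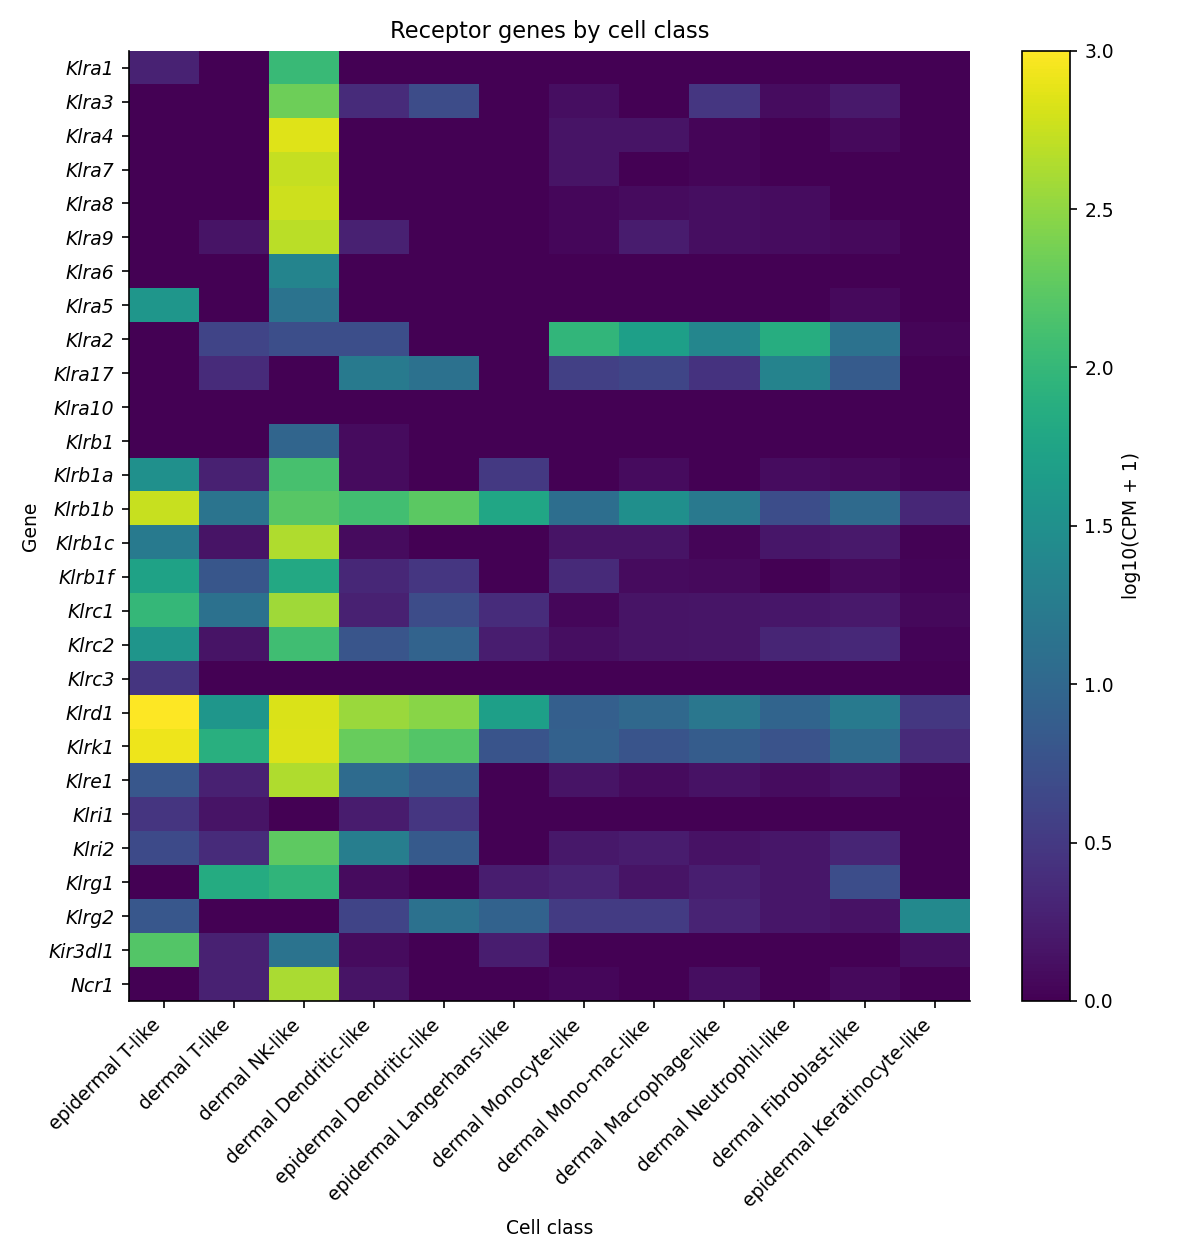
Level of each of the 28 receptor genes (rows) in 12 cell classes (columns), as the base 10 logarithm of CPM + 1 in colour. The NK-like column is bright over most rows, whereas the epidermal T-like column is bright mainly for Klrd1 (986 CPM), Klrk1 (827), Klrb1b (559) and Kir3dl1 (155), and Klra2 is bright in monocyte-like and neutrophil-like cells.

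The cells also differed in how many different receptor genes were found in 1 cell. To set this apart from depth, each cell was thinned at random to 1000 UMIs and shallower cells were left out (16 epidermal T-like cells, 6 dermal T-like cells, no NK-like cell). At least 2 receptor genes were found in 97.3% of the NK-like cells (95% exact binomial interval 85.8 to 99.9) and in 65.6% of the epidermal T-like cells (61.1 to 70.0). The share was 3.67% (1.69 to 6.86) in the dermal T-like cells and 9.14% (6.34 to 12.7) in dendritic-like cells. In keratinocyte-like cells, which should lack most of these genes, no cell of 2515 held 2 at this depth (interval 0 to 0.147%). Over 15 random draws the share ran from 86.5 to 97.3% in NK-like, 64.5 to 69.2% in epidermal T-like and 1.22 to 3.67% in dermal T-like cells, so the ranges did not overlap. With all UMIs, the median cell held 10 receptor genes among NK-like cells (at most 13) and 3 among epidermal T-like cells (at most 7).

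**Figure D2:**
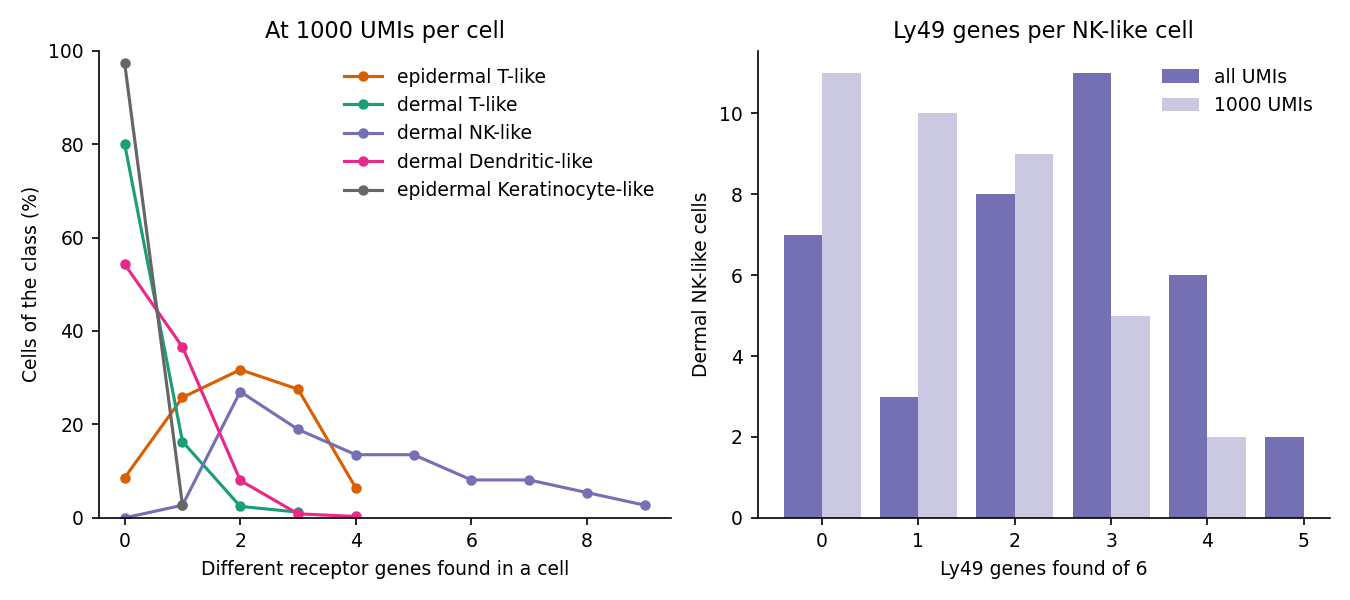
Left, number of different receptor genes found in a cell after thinning to 1000 UMIs (horizontal axis) against the percentage of cells of the class (vertical axis), with 1 line per class; right, number of NK-like cells by how many of 6 Ly49 genes were found, with all UMIs (dark) or at 1000 UMIs (light). NK-like cells spread from 1 to 9 genes, epidermal T-like cells from 0 to 4, and most dermal T-like cells held none.

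The NK-like cells were 1 dermal cluster of 37 cells, 0.779% of the kept dermal cells, at a median of 5637 UMIs. It was named from Eomes, the T-box factor of NK cells, and from the granzyme and perforin genes Gzma, Gzmb and Prf1. Eomes was found in 21 of the 37 cells and Cd3e, which codes for a chain of the T cell receptor complex, in 7, and the cluster was kept whole. The 15 T cell markers summed to 2308 CPM in it (13 of 15 with a UMI), against 5899 in dermal T-like cells. Of the 28 receptor genes, 23 had a UMI in this cluster.

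Among the Ly49 genes, the activating receptors stood beside the inhibitory ones. Klra4 (Ly49D), an activating receptor, was at 713 CPM (609 to 831) and was found in 13 of 37 cells. Klra8 (Ly49H), the activating receptor known for recognition of a cytomegalovirus protein, was at 597 (502 to 705) in 12 cells. The inhibitory Klra7 (Ly49G) was at 542 (451 to 645) in 19 cells, and the inhibitory Klra9 (Ly49I) at 494 (408 to 593) in 21. Klra3 (Ly49C), which is inhibitory, was at 215 (159 to 283) in 13 cells, and the inhibitory Klra1 (Ly49A) at 107 (69.5 to 159) in 8. These 6 genes were thus each found in a part of the NK-like cells only, and no gene was found in all of them.

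The UMIs of a Ly49 gene were gathered in few cells. For the 6 genes, the 5 richest cells held from 52.2% (Klra9) to 84.0% (Klra1) of the UMIs. Among the other genes with 20 UMIs in this cluster, the share ran from 24.4% (Klrk1) to 85.7% (Klrg1), with Klrb1a at 71.0%, so the ranges overlapped. One cell alone had 34 UMIs of Klra4. Counting the 6 genes per cell, 7 cells had none, 3 had 1, 8 had 2, 11 had 3, 6 had 4 and 2 had 5. Klra4 and Klra8 were found together in 6 cells, Klra4 alone in 7, Klra8 alone in 6 and neither in 18. The number of Ly49 genes thus differed between cells, and at 1000 UMIs 11 cells showed none.

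The genes of NKG2D and CD94 were found in more of the cells. Klrk1, the activating NKG2D, was at 688 CPM (585 to 803) and was found in 36 of 37 cells. Klrd1, the common chain of the CD94/NKG2 receptors, was at 679 (577 to 794) in 31 cells. Its inhibitory partner Klrc1 (NKG2A) was at 370 (296 to 456) in 23 cells, and its activating partner Klrc2 (NKG2C) at 120 (80.0 to 174). Klrd1 and Klrc1 were found together in 18 cells, Klrd1 alone in 13, Klrc1 alone in 5 and neither in 1. Most NK-like cells thus held the RNA of the shared chain, and 18 of 37 held both chains of the inhibitory receptor.

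Klrb1c, which codes for the NK1.1 antigen, was at 438 CPM (357 to 532) in 30 cells. Ncr1, which codes for the activating receptor NKp46 and is used as an NK marker, was at 413 (334 to 504) in 31 cells. Both were found in 27 cells and neither was found in 3. The inhibitory NKR-P1B gene Klrb1b was at 163 (116 to 224), Klrb1a at 133 (90.5 to 189) and Klrb1f at 64.5 (36.1 to 106). Ncr1 and Klrb1c were thus each found in most of the cells, so that a large overlap follows from their detection alone. Neither gene had entered the clustering.

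Klre1, whose protein pairs with the KLRI chains, was at 434 CPM (354 to 527) in 28 cells. Klri2, the activating KLRI chain, was at 181 (130 to 244) in 15 cells, of which 12 also held Klre1. Klrg1, an inhibitory receptor for cadherins that marks mature NK cells and differentiated T cells, was at 90.3 (55.9 to 138) in 8 cells.

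Between NK-like and dermal T-like cells, 18 of the receptor genes had the 20 UMIs, summed over both classes, that were needed to be compared. Of the 18, 17 were at least 2-fold higher in NK-like cells, against 8.53% of all 7055 genes compared. However, 12 of them reached 20 UMIs only through the NK-like cells, so that being higher was set by the filter. With the minimum in the dermal T-like cells alone, 5 receptor genes were compared and 4 of them (Klrb1b, Klrc1, Klrd1 and Klrk1) were higher, against 6.80% of 6736 genes. In the full comparison, none was at least 2-fold lower, against 17.1% of all genes, but the 12 set by the filter could not have been. The median log2 ratio over all genes was -0.12. Klra4 was at least 540-fold higher and Klra8 at least 452-fold higher, since the dermal T-like cells held no UMI of either and the floor was set at 3 UMIs. Klrd1 was 18.4-fold higher (14.0 to 24.2), Klrk1 8.82-fold (7.08 to 11.0), Klrc1 29.97-fold (19.4 to 47.7) and Ncr1 468-fold (126 to 3923). Klrg1 was the exception, at 1.31-fold (0.791 to 2.08). As these are classes of 1 library, the values compare the cells of that library.

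The epidermal T-like cells, 470 in number, were 11.3% of the kept epidermal cells and were shallow, at a median of 2276 UMIs. An unnamed epidermal cluster of 49 cells with T cell markers, described below, was not counted among them. Trdc, the constant segment of the T cell receptor δ chain, was found in 461 of the 470, and Trdv4, the variable segment of dendritic epidermal T cells, in 126. Keratinocyte RNA was present in them as well. Krt14 was found in 469 of 470 cells, and 10 of 10 keratinocyte markers summed to 7003 CPM against 27510 in the keratinocyte-like cells and 59.9 in the dermal T-like cells. Its part in the levels below was not tested. The keratinocyte-like cells themselves had 2.05 CPM of Klrd1, 1.27 of Klrk1, 1.18 of Klrb1b and 0.277 of Kir3dl1. The 41 neutrophil-like cells of the epidermis were about as shallow as the T-like cells, at a median of 2061 UMIs. They had Klrk1 at 49.6 CPM (16.1 to 116), from 5 UMIs. Klrd1 and the Klrc genes together were at 89.2 (40.8 to 169), from 9 UMIs. The 23 basophil-like cells, at a median of 2596 UMIs, had no UMI of Klrk1 (upper bound 53.9). The part of free RNA in these values was not tested.

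Klrd1 was the most counted receptor gene in these cells, with 1057 UMIs or 986 CPM (927 to 1047), and was found in 385 of 470 cells (81.9%). At 1000 UMIs it was found in 60.1% of the cells, against 0.239% of keratinocyte-like cells, whose median depth before thinning was 31359 UMIs. Klrk1 was at 827 (774 to 883) in 366 cells (77.9%), and in 51.1% of cells at 1000 UMIs against 0.0795% of keratinocyte-like cells. Klrb1b, whose product is an inhibitory receptor for the lectin-related protein Clr-b, was at 559 (515 to 605) in 334 cells (71.1%), and in 42.3% at 1000 UMIs against 0.159%. These 3 genes were thus found in most epidermal T-like cells. Klrd1 and Klrk1 were found together in 302 cells, Klrd1 alone in 83, Klrk1 alone in 64 and neither in 21. No single cell decided these values, as the richest cell held 1.04% of the Klrd1 UMIs.

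Kir3dl1, the mouse member of the killer cell immunoglobulin-like receptors, was at 155 CPM (132 to 180) in 134 cells (28.5%), and in 14.8% at 1000 UMIs against 0.0795% of keratinocyte-like cells. Kir3dl2, which is outside the rule, was at 94.2 CPM in the same cells. On chromosome X, its annotated span on the minus strand holds the whole of Kir3dl1, which lies on the plus strand. Both were found in 34 cells, Kir3dl1 alone in 100 and Kir3dl2 alone in 48. Because the ends of the 2 genes share words, the split between them is uncertain.

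The NKG2 chains were low beside Klrd1. Klrc1 was at 97.9 CPM (80.1 to 119) and Klrc2 at 35.4 (25.1 to 48.6). Klrd1 and Klrc1 were found together in 67 cells and Klrd1 without Klrc1 in 318. Klrd1 was thus mostly found without a UMI of Klrc1, which at this depth does not show that Klrc1 was silent in those cells. Klrb1f was at 53.2 (40.3 to 68.9), Klrb1a at 30.8 (21.2 to 43.2) and Klrb1c at 15.9.

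Of the Ly49 genes, Klra5 (Ly49E) alone reached 20 UMIs in these cells. It was at 36.4 CPM (25.9 to 49.7), from 39 UMIs in 31 cells, and had none in the dermal T-like cells. The 6 Ly49 genes of the NK-like cells were not found in 469 of the 470 epidermal T-like cells. Klrg1 and Ncr1 had no UMI in them, which gives an upper bound of 3.44 CPM. NK-like cells held 3 UMIs of Klra5, at 12.9 CPM (2.66 to 37.7), an interval that holds the epidermal level. Klra5 was not among the 6 Ly49 genes of the NK-like cells, but that class held fewer UMIs of all genes (232686 against 1072351). The limit of 20 UMIs therefore does not set the classes apart for this gene.

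**Figure D3:**
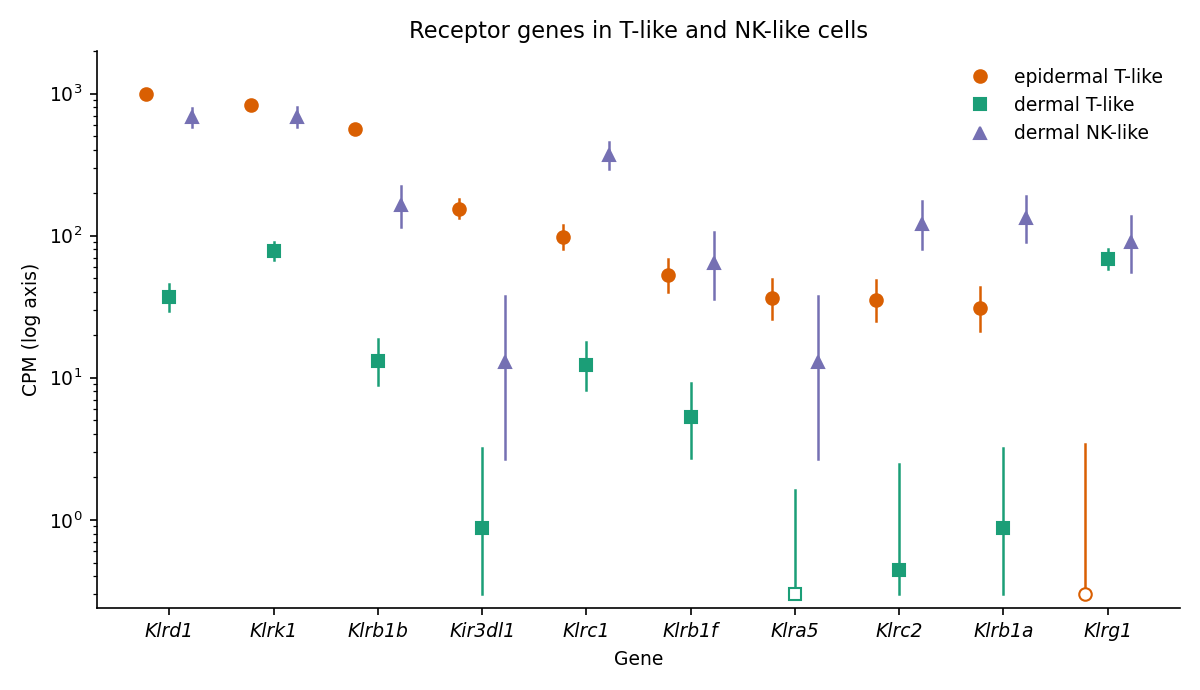
Levels of 10 receptor genes (CPM, logarithmic axis) in epidermal T-like, dermal T-like and dermal NK-like cells, with exact 95% Poisson intervals as bars; open symbols on the lower edge stand for 0 UMIs. Klrd1 and Klrk1 are near each other in epidermal T-like and NK-like cells (986 and 679, 827 and 688), and Klrg1 is at 68.7 in dermal T-like cells with no UMI in the epidermal ones.

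Set against dermal T-like cells, 10 of the receptor genes could be compared. Of these, 9 were at least 2-fold higher in epidermal T-like cells, against 28.0% of all 8490 genes compared. The other, Klrg1, was at least 2-fold lower, against 9.91% of all genes. The direction of 5 of the 10 was set by the filter, since Kir3dl1, Klra5, Klrb1a, Klrb1f and Klrc2 reached 20 UMIs only in the epidermal class. Klrg1 reached it only in the dermal class, where it was high (156 UMIs against 0). As that class held more UMIs of all genes, the filter alone did not fix the direction of Klrg1. With the minimum in the dermal T-like cells alone, 4 of 5 (Klrb1b, Klrc1, Klrd1 and Klrk1) were higher, against 18.5% of 6736 genes. Over all genes the median log2 ratio was 0.49. Klrd1 was 26.6-fold higher (21.3 to 33.7), Klrk1 10.6-fold (9.02 to 12.5), Klrb1b 42.3-fold (29.3 to 63.2) and Klrc1 7.94-fold (5.19 to 12.5). Kir3dl1 was 176-fold higher (47.9 to 1463), on 2 dermal UMIs. Klra5 was at least 27.5-fold higher, and Klrg1 at least 24.6-fold lower. The 13 NK markers also moved with this contrast, at 5069 CPM (8 of 13 with a UMI) in epidermal and 1410 (11 of 13) in dermal T-like cells, and their part in it was not tested.

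Epidermal T-like and NK-like cells came from different libraries, and their levels are set side by side. NK-like cells had 0.689 times the Klrd1 level (0.579 to 0.815) and 0.831 times the Klrk1 level (0.698 to 0.985) of epidermal T-like cells, a difference of less than 2-fold. Over all genes the median log2 ratio between these classes was -0.67, and relative to it the direction of both genes turns. Klrc1 was 3.77-fold higher in NK-like cells (2.80 to 5.07). In the other direction, Klrb1b was 3.42-fold higher (2.46 to 4.88) and Kir3dl1 12.0-fold higher (4.04 to 58.8) in epidermal T-like cells.

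The 4 clusters of epidermal T-like cells (136, 135, 110 and 89 cells) differed by less than 2-fold in Klrd1, Klrk1 and Klrb1b. Klrd1 ran from 868 CPM (769 to 976) to 1138 (987 to 1305), where the intervals did not overlap. Klrk1 ran from 731 (611 to 867) to 923 (824 to 1031). Klrb1b ran from 507 (434 to 589) to 675 (560 to 806). Kir3dl1 was at 183 (140 to 234) in the cluster led by Kir3dl2 and Trdv4 and at 89.2 (51.0 to 145) in the cluster of 89 cells. That first cluster was found with the help of Kir3dl2, whose reads can fall on Kir3dl1. One more lymphoid cluster of the epidermis, of 49 cells led by Il17f, Il17a and Il22, was not named. Cd3d, Cd3g and Trdc were among its markers, and the 15 T cell markers summed to 6811 CPM, against 5899 in dermal T-like cells. At a median of 6068 UMIs it was shallow for its library, and none of its 10 leading genes was a T cell marker. The named clusters were shallower, at medians of 2003 to 2441, but had such a marker. The summed receptor level of the unnamed cluster was 291 CPM (236 to 356). This sum was uneven over its cells, with a median of 0 receptor genes per cell and at most 8. The cluster had Klrd1 at 27.3 CPM (12.5 to 51.8), Klrk1 at 75.8 (49.1 to 112), Klrb1b at 24.3 (10.5 to 47.8) and no UMI of Kir3dl1. The receptor genes of the other 4 clusters were thus lower in these cells of the same library.

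**Figure D4:**
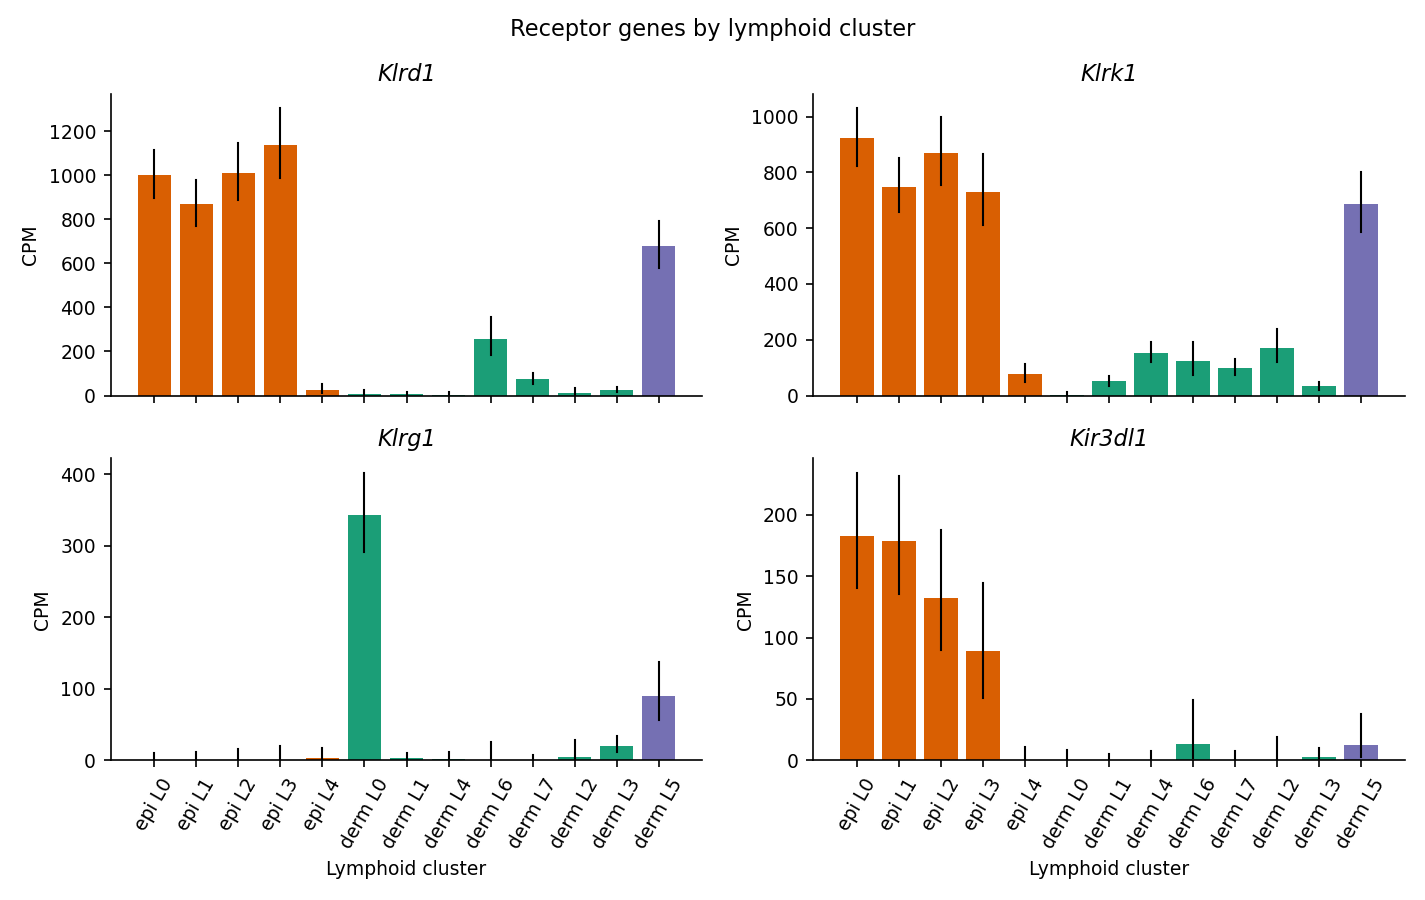
Levels of Klrd1, Klrk1, Klrg1 and Kir3dl1 (bars, CPM from 0, with exact 95% Poisson intervals as lines) in the lymphoid clusters of the epidermis (epi) and dermis (derm); derm L5 is the NK-like cluster, and epi L4, derm L2 and derm L3 are unnamed. Klrg1 is gathered in derm L0, led by Foxp3 and Tnfrsf4 (343 CPM), and epi L4, led by Il17f, Il17a and Il22, has Klrd1 at 27.3.

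The dermal T-like cells were 251 in number, at a median of 7142 UMIs. Klrk1 was at 77.9 CPM (66.9 to 90.3) and was found in 78 cells (31.1%), or in 7.76% of cells at 1000 UMIs, against 0.771% of fibroblast-like cells at that depth, whose median was 10892 UMIs. Klrk1 was at 9.88 in fibroblast-like, 6.55 in macrophage-like and 4.25 in basophil-like cells of the dermis. In the shallow mast-like cells (median 873 UMIs) it was at 18.2 (3.75 to 53.1), from 3 UMIs. Klrg1 was at 68.7 (58.3 to 80.4) in 45 cells (17.9%), or in 7.76% at 1000 UMIs, against 4.12 and 0.771% in fibroblast-like cells. Both genes thus stood above their levels in these other classes. The level of free RNA itself was not measured.

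Klrg1 was gathered in 1 kind of dermal T-like cell. The cluster led by Foxp3, the regulatory T cell factor, and Tnfrsf4 (82 cells) held 153 of the 156 UMIs, at 343 CPM (291 to 402), and Klrg1 was found in 42 of its 82 cells. In the same cluster Klrk1 was at 2.24 CPM. Taking cells by genes instead of clusters, the 44 cells with a Foxp3 UMI and no Trdc UMI had Klrg1 at 406 (334 to 490) and no UMI of Klrk1 or Klrd1. The 93 cells with a Trdc UMI had Klrg1 at 0.953 (0.0241 to 5.31) and Klrk1 at 122 (102 to 145). Klrg1 and Klrk1 were thus found in different dermal T-like cells.

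Klrk1 varied between the clusters led by genes of interleukin-17-producing cells. It was at 152 CPM (119 to 191), in 28 of 43 cells, in the cluster led by Il23r, Areg and Il17f, and at 50.6 in the cluster of 71 cells led by Il17re and Il22. In the cluster led by cell cycle genes (26 cells) it was at 100. An unnamed cluster of 61 cells led by Il9r and Gata3, in which Cd3e was found in 1 cell, had Klrk1 at 172 (119 to 240) in 22 cells. This cluster had no Cd3 gene among its markers and was not counted with the T-like cells.

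Klrd1 in the dermal T-like cells rested on few of them. It was at 37.0 CPM (29.5 to 45.8) in 22 of 251 cells, against 16.3 in fibroblast-like and 14.6 in macrophage-like cells. One cell held 34 of the 84 UMIs (40.5%), and the 5 richest cells held 77.4%. The cluster led by Tcf7 (29 cells) had Klrd1 at 258 (183 to 355) in 10 cells. Klrb1b, at 13.2 (8.91 to 18.9), was at the level of fibroblast-like (9.88) and macrophage-like cells (15.5) and thus did not stand out from these classes. Klrc1 was at 12.3 (8.19 to 17.8), with 75.0% of its UMIs in 5 cells, and Klrb1f at 5.28.

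In the myeloid cells of the dermis the receptor genes fell on different cell types. Dendritic-like cells, which carry antigen to lymph nodes, had Klrd1 at 351 CPM (333 to 369) in 243 of 351 cells, from 1544 UMIs. At 1000 UMIs, Klrd1 was found in 26.6% of them, against 0.923% of macrophage-like cells, at median depths of 12002 and 9555 UMIs before thinning. Klrk1 was at 202 (189 to 216) in 228 cells, and Klrb1b at 124 (113 to 134) in 166. T cell and NK cell RNA was low in them. The 15 T cell markers summed to 63.4 CPM (14 of 15 with a UMI) against 5899 in dermal T-like cells, with Cd3e at 4.77, and the 13 NK markers to 310 (12 of 13) against 26675 in NK-like cells, with 1 UMI of Eomes. The same lists were at 51.4 and 70.8 in monocyte-like cells. The sum of the NK markers was uneven, at 1402 in a cluster of 55 dendritic-like cells and at 67.1 in the other 296, where Klrd1 was at 359. In these 296 cells Klrd1 was thus high with NK and T cell markers at the level of monocyte-like cells, and in the 55 cells the part of the NK markers in the receptor levels was not tested.

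The NKG2 chains were low in the dendritic-like cells. Klrc1 had 4 UMIs in all 351 cells and Klrc2 was at 5.22 CPM. Klrd1 was found with Klrc1 in 3 cells and without it in 240. Klrd1 and Klrk1 were found together in 182 cells, Klrd1 alone in 61, Klrk1 alone in 46 and neither in 62. Klri2 was at 17.9 (14.2 to 22.4) and Klre1 at 10.2. The cells also had Tyrobp, the adapter DAP12, at 2607 and Hcst, the adapter DAP10 that carries NKG2D, at 62.2.

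Of 10 receptor genes compared between dendritic-like and macrophage-like cells, 8 were at least 2-fold higher in dendritic-like cells, against 10.3% of 10742 genes. Klra2 was the only one at least 2-fold lower, against 11.6% of all genes. Of the 8, Klra17, Klrc2, Klre1 and Klri2 reached 20 UMIs only in the dendritic-like cells, so that their direction was set by the filter. With the minimum in the macrophage-like cells alone, 3 of 5 (Klrb1b, Klrd1 and Klrk1) were higher, against 7.19% of 9947 genes. Klrk1 was 30.9-fold higher (24.0 to 40.3), Klrd1 24.0-fold (20.3 to 28.6), Klrb1b 7.97-fold (6.66 to 9.59) and Klri2 45.2-fold (17.0 to 170). The dendritic-like cells were made of 2 clusters. In the larger one (296 cells, led by Cd209a and Flt3), Klrd1 was at 359 (339 to 379) and Klrb1b at 144 (132 to 157). In the smaller one (55 cells, with Ccr7 and Fscn1, genes of migrating dendritic cells), Klrd1 was at 314 (276 to 355) and Klrb1b at 30.01 (19.2 to 44.7). Klrb1b thus differed between the 2 dermal clusters, whereas Klrd1 differed little between them.

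The epidermal library held dendritic-like cells as well. In its 58 cells, Klrd1 was at 292 CPM (247 to 344), Klrb1b at 174 (139 to 215) and Klrk1 at 156 (123 to 195). The 148 Langerhans-like cells, the antigen-presenting cells that reside in epidermis, had Klrb1b at 58.7 (46.7 to 72.9) and Klrd1 at 48.7 (37.8 to 61.8), and Klrk1 at 5.01. The 58 cells were made of 2 clusters that differed. In the one of 30 cells, Klrd1 was at 507 (423 to 603), Klrk1 at 270 (209 to 342) and Klrb1b at 266 (206 to 337). The other, of 28 cells, had Ccr7 and Fscn1 among its markers, as the smaller dermal cluster did. Its Klrd1 was at 72.8 (43.1 to 115), its Klrk1 at 40.4 (19.4 to 74.4) and its Klrb1b at 80.9 (49.4 to 125). Unlike in the dermis, Klrd1 thus differed between the 2 epidermal clusters. The same 3 receptor genes were thus found in dendritic-like cells of both libraries, and in the epidermis mainly in 30 cells.

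Klra2 (Ly49B), an inhibitory receptor known from myeloid cells, was found mainly in monocytes and neutrophils. In monocyte-like cells it was at 94.0 CPM (86.9 to 101), from 653 UMIs in 365 of 845 cells (43.2%). In neutrophil-like cells it was at 72.2 (64.0 to 81.2) in 198 of 741 cells. Cells between monocytes and macrophages, which had markers of both, were at 48.5 (42.2 to 55.5), macrophage-like cells at 22.6 (19.8 to 25.8) and dendritic-like cells at 4.31. In fibroblast-like and endothelial-like cells it was at 12.6 and 14.3. Dermal T-like cells were lower, at 3.08 (1.24 to 6.35, from 7 UMIs). NK-like cells were at 4.30 (0.109 to 23.9, from 1 UMI), an interval that holds the fibroblast-like and endothelial-like values. The part of free RNA in these values was not tested. A UMI was found in 10.9% of the fibroblast-like cells, which were deeper (median 10892 UMIs) than the monocyte-like cells (8010). Klra2 was 4.15-fold higher in monocyte-like than in macrophage-like cells (3.57 to 4.85) and 3.19-fold higher in neutrophil-like cells (2.67 to 3.81), where the median log2 ratios over all genes were -0.16 and -0.61. The order from monocyte-like through neutrophil-like and intermediate to macrophage-like cells had no overlap of counting intervals.

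Klra17 (Ly49Q), the Ly49 gene at the other end of the row, had a different pattern. It was at 21.2 CPM (16.9 to 26.3) in neutrophil-like cells, in 69 of 741 cells, and at 15.7 (12.2 to 19.8) in dendritic-like cells. It was at 2.74 in monocyte-like and 1.79 in macrophage-like cells, below the 6.17 of fibroblast-like cells. The level in neutrophil-like cells was 11.9-fold that in macrophage-like cells (7.06 to 21.01). Klra17 reached 20 UMIs only in the neutrophil-like class (82 against 18), so that its direction was set by the filter. Of all 10509 genes compared between these classes, 1103 were at least 2-fold higher in neutrophil-like cells. The Ly49 genes at both ends of the row were thus found in myeloid cells, and 6 of the 9 between them reached 20 UMIs in NK-like cells. Among these 6, Klra3 also reached 20 UMIs in the myeloid cells, with 29 UMIs at 0.978 CPM, against 215 in NK-like cells. Of the 29, 20 lay in macrophage-like cells, at 1.99 CPM.

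**Figure D5:**
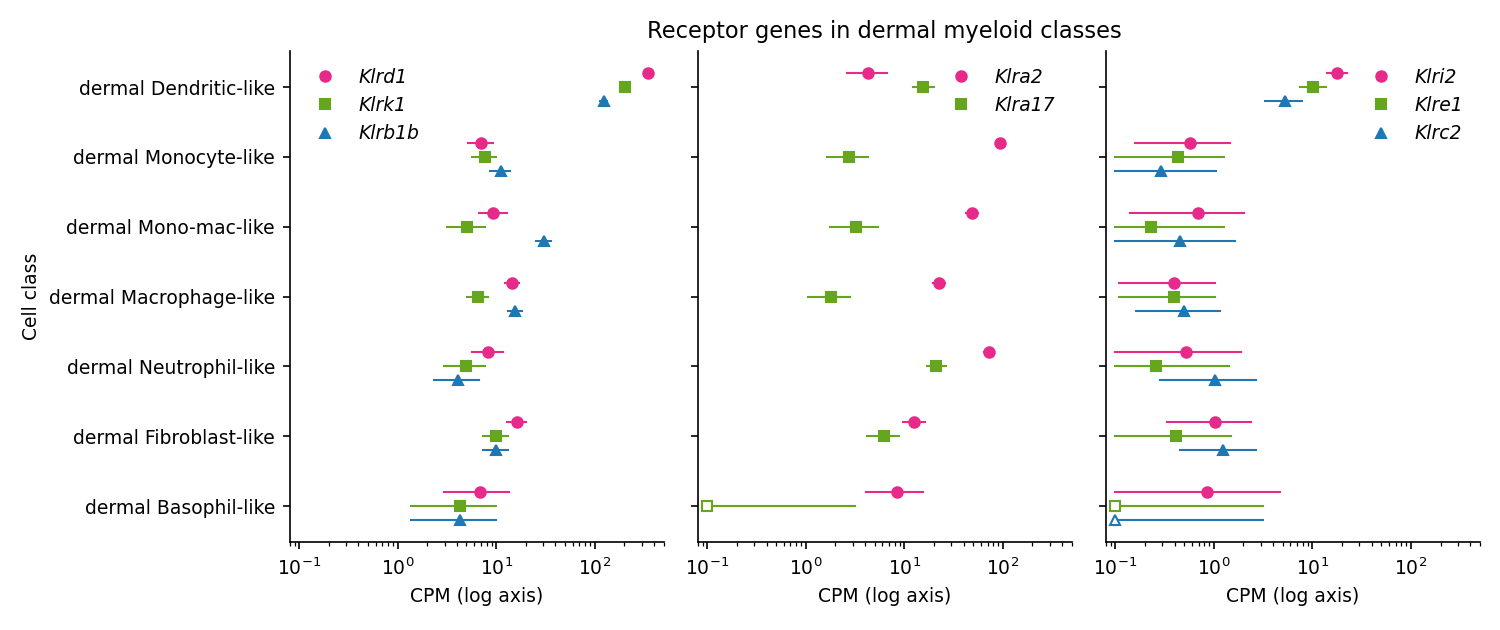
Levels of 8 receptor genes (CPM, logarithmic axis) in the myeloid classes of the dermis, with fibroblast-like and basophil-like cells for comparison; lines are exact 95% Poisson intervals and open symbols stand for 0 UMIs. Klrd1, Klrk1 and Klrb1b stand highest in dendritic-like cells (351, 202 and 124), Klra2 in monocyte-like cells (94.0) and Klra17 in neutrophil-like cells (21.2).

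Klrg2, whose product has the lectin fold and whose function is little known, made up most of the receptor UMIs of keratinocytes. Keratinocyte-like cells held 1984 UMIs of Klrg2 among 2411 of all receptor genes, or 24.95 CPM (23.9 to 26.1), in 1236 of 2520 cells (49.0%), and 79.1% of all Klrg2 UMIs of the epidermal library. At 1000 UMIs it was found in 2.15% of these cells, against a median depth of 31359 UMIs before thinning. Klrg2 was at 5.60 CPM in epidermal T-like cells and 3.18 in dermal dendritic-like cells.

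Many of the activating receptors signal only through adapter proteins, and the adapters differed between the classes. These genes had entered the clustering, so their values are given as a description. Tyrobp (DAP12), the adapter of Ly49D and Ly49H, was at 3915 CPM (3665 to 4178) in NK-like, 390 (365 to 417) in dermal T-like and 18.7 (11.4 to 28.8) in epidermal T-like cells, against 12.3 in keratinocyte-like cells. Hcst (DAP10) was at 752 (645 to 872) in NK-like and 679 (630 to 730) in epidermal T-like cells, and at 350 (326 to 375) in dermal T-like cells. Fcer1g, the Fc receptor γ chain that carries NKp46, was at 2884 (2670 to 3110) in NK-like and 2912 (2811 to 3016) in epidermal T-like cells, against 403 (378 to 430) in dermal T-like cells. Epidermal T-like cells thus held Klrk1 together with Hcst while Tyrobp was near the level of keratinocyte-like cells. Syk, the kinase that DAP12 recruits, had no UMI in them. Of the 17 signal partners listed, 13 could be compared between epidermal and dermal T-like cells, and 6 were at least 2-fold higher and 2 at least 2-fold lower, against 28.0% and 9.91% of all genes.

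The ligands of the receptors were looked up in the same libraries. Of 23 listed, 18 were among the genes of the files. H60c, an NKG2D ligand of the skin, was at 7.11 CPM (6.53 to 7.72) in keratinocyte-like cells, from 565 UMIs, and had no UMI in the dermal classes. Cdh1, which codes for E-cadherin, the ligand of KLRG1, was at 34.3 in keratinocyte-like, 129 in Langerhans-like and 256 in basophil-like cells. H2-T23, which codes for Qa-1, was at 221 in dermal and 120 in epidermal T-like cells, 215 in NK-like, 183 in dendritic-like and 10.7 in keratinocyte-like cells.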

How the data were processed

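Single-cell 3′ libraries (10x v3 chemistry) of 1 dermis and 1 epidermis were analysed. The submitters' processing notes name CASAVA, Cell Ranger and the mm10 build, and the headers of the matrices give Cell Ranger 3.0.2. The deposited values are raw UMI counts per gene and barcode, and the authors had applied no normalization to them. A barcode was kept as a cell with 200 or more genes and 10% or less of mitochondrial UMIs.

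Each library was clustered on its own without the 28 receptor genes (log of UMIs per 10000, 2000 variable genes, 30 principal components, 15 neighbours, Leiden at resolution 1), and the lymphoid clusters were clustered again (scanpy 1.11.5, leidenalg 0.10.2, Python 3.11.15). Clusters were named from lists of markers when at least 3 markers were found in at least 25% of the cells and at 2 times the mean of the other clusters. Such a cluster was still left unnamed if its 10 leading genes held more markers of another cell type. The same held if it was shallow for its library with no marker among those genes. It also held for a T-like cluster without a Cd3 gene among its markers. Unnamed clusters held 195 dermal and 789 epidermal cells, the latter including 1 cluster of 486 cells with keratinocyte markers. The limits on markers were set after the clusters had been seen, and a different result from the study's may come from names rebuilt here. UMIs were summed per class, and a gene was compared between classes when both together held 20 UMIs, with a fold of 2 as the rule of size and 3 UMIs as the floor. Intervals are at the 95% level. Receptor genes with at least 20 UMIs in 1 of the 4 classes were described with their values, and listed signal partners and ligands by their UMIs. The receptor genes and the lists were chosen with earlier results of these data known. No doublets were removed in the main values. The fold rule was run on simulated sums with planted differences larger than 2-fold and counting error only. That run does not test the naming of classes, the libraries or free RNA. Positions come from GENCODE M21, in which 30934 of 31053 gene identifiers were found, and sequences from RefSeq. Replicate tests were not possible with 1 library per tissue.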

Additional observations from a re-analysis of the deposited data

How the results depend on the processing

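No paired analysis was possible because the series has 1 library of dermis and 1 of epidermis. Of the values recomputed under the alternatives planned, 67 stayed within the counting interval of the value given above, or within 1.5 times a count, and 19 did not, and the cause was not tested. With the study's filter on cells (62 dermal and 260 epidermal T-like cells), the summed level of dermal T-like cells was 401 CPM. The share of cells with at least 2 receptor genes was 56.5% in epidermal and 1.61% in dermal T-like cells. Of 17 receptor genes compared, 1 was at least 2-fold lower in NK-like than in dermal T-like cells. With the receptor genes in the clustering, the dermal T-like class had 106 cells at 418 CPM. There too, 1 of 17 receptor genes compared was at least 2-fold lower in NK-like cells. Without likely doublets (180 dermal and 139 epidermal cells), the dermal T-like level was 195, and without the richest cell it was 202. Without the richest NK-like cell, 100% of NK-like cells were above 1 gene. The cells were thinned anew for this, and thinning alone moved that share from 86.5 to 97.3% over 15 draws of the full class. With gates on Cd3 UMIs in place of clusters, the levels were 941 in epidermal T, 259 in dermal T and 5244 in NK cells. Of 16 receptor genes compared, 10 were at least 2-fold higher and 5 at least 2-fold lower in epidermal T cells. At least 2 receptor genes were found in 57.4% of the epidermal T cells. For the stricter filter, the clustering with receptor genes and the gates, the share of all genes past 2-fold was not computed, so these counts have no background. That epidermal gate took in 17 keratinocyte-like cells, which held 29.7% of its UMIs, and 45 cells of unnamed clusters, which held 37.9%, so that T-like cells held 30.3%. As a mean over cells, the level was 316 in dermal T-like and 165 in myeloid cells. At 2000 UMIs per cell, the share with at least 2 genes was 96.4% in epidermal T-like, 100% in NK-like and 4.29% in myeloid cells. Several alternatives were added after the values had been seen. With the unnamed epidermal cluster counted as T-like, the epidermal level was 2222 and the share 60.2%. With the minimum of 20 UMIs set in the dermal T-like cells alone, 5 receptor genes were compared. Of these, 4 were higher in epidermal T-like and 4 in NK-like cells, with the shares over all genes given above. Counting the unnamed dermal clusters as T-like gave a dermal level of 210 and a share of 2.54%, and ratios relative to the median of all genes left the counts as they were. At 2 times the resolution no dermal cluster was named T-like, so values for dermal T-like cells could not be computed.

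The 37 NK-like cells limit the precision of each share, and the low depth of the epidermal T-like cells, at a median of 2276 UMIs, limits what the absence of a gene in a cell can show. Free RNA in each library is counted with the RNA of the cells.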
